A study of Mus musculus with 11 samples.

Results

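The genes described here are 9 components of the Nodal pathway: the ligand Nodal, its co-receptor Tdgf1, the activin receptors Acvr1b and Acvr2b, the secreted antagonists Lefty1, Lefty2 and Fst, the transducer Smad2 and the intracellular inhibitor Smad7. They were chosen by name, and all 9 were found among the 22369 genes of the read count table by matching Ensembl identifiers to symbols. All 9 also reached the mean level of 1 CPM (read counts scaled to the library's total) required for testing, as did 12479 genes in all. The RNA came from 11 mouse embryonic stem cell clones, sequenced as 1 library each, with no treatment or control group to compare. Every clone derives from EBRTcH3, an embryonic stem cell line that makes the tetracycline-controlled transactivator from ROSA26, and carries several barcoded piggyBac reporters driven by the mouse PGK promoter. Each was picked as a single colony after sorting for high eGFP, and is named here by the number that ends its label, 16 to 26. All were grown in medium conditioned by BRL cells, with leukemia inhibitory factor, the MEK inhibitor PD0325901 and the GSK-3 inhibitor CHIR99021.

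Nodal is a secreted ligand of the TGF-beta family that patterns the early embryo. It binds type I and type II activin receptors together with the co-receptor Tdgf1 (Cripto), and the activated type I receptor phosphorylates Smad2 and Smad3, which enter the nucleus with Smad4 and act with DNA-binding partners such as Foxh1. The Lefty genes and Smad7 are induced by the signal and damp it, Lefty proteins by binding ligand and co-receptor outside the cell and Smad7 by blocking the receptor. In embryonic stem cells the pathway is active through ligand that the cells make themselves.

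The starts of 2 genes are shown to give the sequence context of the ligand and co-receptor, neither of which passed the test of spread below. Each line gives the 250 bases before the RefSeq transcription start in build GRCm38.p6, 5′ to 3′ on the gene's strand. The Nodal window is chr10:61417722-61417971 on the plus strand and the Tdgf1 window is chr9:110946159-110946408 on the minus strand. Capitals mark matches on either strand to the SMAD-binding element CAGAC, the FOXH1 pattern AATNNACA and the TCF core CTTTG.
Nodal: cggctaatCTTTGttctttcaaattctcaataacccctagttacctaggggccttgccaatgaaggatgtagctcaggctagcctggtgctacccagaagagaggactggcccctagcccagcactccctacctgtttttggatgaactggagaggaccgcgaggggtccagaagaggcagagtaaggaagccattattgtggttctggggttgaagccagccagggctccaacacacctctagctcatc
Tdgf1: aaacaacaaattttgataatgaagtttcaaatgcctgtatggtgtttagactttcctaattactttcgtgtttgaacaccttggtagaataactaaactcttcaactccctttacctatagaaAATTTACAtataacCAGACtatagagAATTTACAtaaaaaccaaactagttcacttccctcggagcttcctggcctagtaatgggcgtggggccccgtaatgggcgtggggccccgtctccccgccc
The Tdgf1 window held 2 FOXH1 patterns, starting 127 and 101 bases before the start, with a SMAD element between them at 113 bases. The Nodal window held 1 TCF core, 242 bases before the start. Of 32851 windows of this length in the RefSeq table, 42.2% held the SMAD element, 10.9% the FOXH1 pattern and 48.6% the TCF core. A match to the SMAD element or the TCF core is therefore common, and a match to the FOXH1 pattern less so. The share of windows with 2 FOXH1 patterns around a SMAD element was not counted. The table matched 4 of the 9 members (Nodal, Tdgf1, Acvr1b and Acvr2b). Lefty1, Lefty2, Fst, Smad2 and Smad7 were not matched.

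Total counts ranged from 10846005 to 16868500 per library, with a median of 14378599, and 3 counts, the floor used here, corresponded to 0.173 to 0.284 CPM. The 8 pluripotency markers examined (Pou5f1, Sox2, Nanog, Esrrb, Tfcp2l1, Zfp42, Klf4 and Tbx3) summed to 6725 to 8805 CPM, with 0 of 8 called variable by the edgeR test described below. Of the other marker lists, primitive endoderm summed to 15.2 to 27.0 CPM, primitive streak and mesoderm to 5.60 to 18.7, anterior visceral endoderm to 22.8 to 61.3, neural genes to 48.6 to 121 and fibroblast genes to 12.03 to 26.9. Of their tested genes 0 of 4, 0 of 2, 1 of 2 (Otx2), 3 of 3 (Pax6, Nes and Tubb3) and 1 of 4 (Col1a1) were called variable. Clone 19 had the highest Nes (75.9 CPM) and Col1a1 (4.50) and the lowest Otx2 (12.2) and Tubb3 (19.2), and the part of these in its Lefty levels was not tested. In these lists Fap was at 0 counts in every library, and Cer1, Lhx1, Mesp1, Neurog2 and Twist2 did not pass 3 counts in any. With 1 library per clone, variation between clones and between libraries cannot be separated, and the labels name no batch.

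Levels of the 9 genes were compared per length, as CPM per kilobase of annotated exon, given as mean ± SD over 11 clones. Tdgf1 stood highest at 378 ± 41.9 CPM per kilobase, above every other member in all 11 clones. Smad7 (61.4 ± 14.6), Lefty2 (54.1 ± 59.8) and Nodal (49.1 ± 6.47) followed. Their order was not stable: Smad7 exceeded Lefty2 in 8 of 11 clones and Lefty2 exceeded Nodal in only 3 of 11, its mean being carried by a few clones. Nodal was above Acvr1b (22.5 ± 3.90) in 11 of 11 clones. Lefty1 (21.3 ± 22.6) lay below Acvr1b in 9 of 11. Smad2 (5.85 ± 0.53), Acvr2b (5.33 ± 0.79) and Fst (4.38 ± 1.68) had the lowest means and overlapped within their spread.

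**Figure D1:**
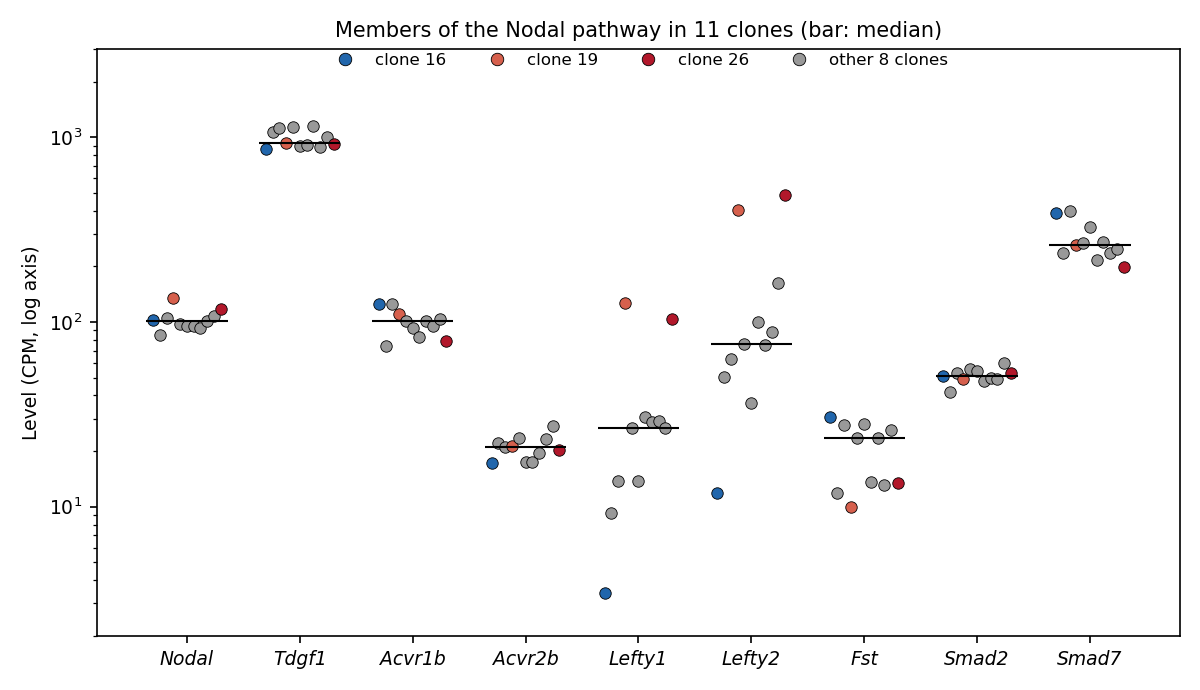
Level of each member (CPM on a log axis) in the 11 clones; each point is 1 clone, in clone order from 16 to 26 within a gene, and the bar is the median. Lefty1 and Lefty2 spread widely, with clone 16 lowest and clones 19 and 26 highest, while Nodal, Tdgf1, Acvr2b and Smad2 lie close to their medians.

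The first comparison asked whether a gene spread more over the 11 clones than genes of the same abundance, with edgeR. The dispersion trend over abundance set the expected spread and a goodness-of-fit test the p-value, with Benjamini-Hochberg adjustment over all 12479 genes. Lefty2, Lefty1 and Fst passed at an adjusted p of 0.05, and Nodal, Tdgf1, Acvr1b, Acvr2b, Smad2 and Smad7 did not. That is 3 of 9 members, beside 7.68% of all tested genes (959 of 12479). At an unadjusted p under 0.05 Smad7 joined them, which makes 4 of 9 beside 13.1%. All 3 that passed encode secreted antagonists. Dand5 and Inha, the other tested genes of this role in the pathway list described below, did not pass. The members were chosen with earlier results of these libraries known, so the count describes these genes and is no independent evidence about the pathway.

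The ligand was nearly level. Nodal was lowest in clone 17 at 84.5 CPM, had a median of 101 and was highest in clone 19 at 134 CPM. Clone 26 came second at 118 CPM, and the other 9 clones lay between 84.5 and 108, below both. The coefficient of variation (CV) of Nodal over the clones was 13.2%, beneath the 17.5% that the dispersion trend gives for a gene of its abundance. It did not pass the goodness-of-fit test (edgeR, adjusted p = 1), and 47.3% of tested genes had a smaller deviance. Gdf3, a related ligand of the same receptors, ranged from 93.3 to 141 CPM and also did not pass (edgeR, adjusted p = 1).

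The co-receptor Tdgf1 ran from 860.1 CPM in clone 16 through a median of 932 to 1149.5 in clone 23. Its CV of 11.1% was again below the trend of 16.3%. Tdgf1 has a pseudogene, Tdgf1-ps1, that shares 8.86% of the 50-base stretches of its transcripts, so a small part of its reads may be uncertain.

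The receptors were also steady. The type I receptor gene Acvr1b spanned 73.7 CPM (clone 17) to 126 (clone 18), with a median of 101. The type II receptor gene Acvr2b spanned 17.2 (clone 16) to 27.4 (clone 25), with a median of 20.98. Neither passed the test (edgeR, adjusted p = 1 for both). Acvr1b lies on chromosome 15, where its 24 nearest expressed genes were higher together in some clones. Their median difference from the median clone was 0.56 in clone 19, 0.46 in clone 18 and 0.35 in clone 16 on the log2 scale. Acvr1b itself differed by 0.12, 0.31 and 0.31 in those clones. In clone 17 the neighbours were 0.20 higher while Acvr1b was 0.46 lower than in the median clone. Around the other 8 members the neighbours stayed within 0.2 of the median clone in all 11 clones.

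Lefty2, which encodes the more abundant of the 2 Lefty antagonists here, was at 11.8 CPM in clone 16 (125 counts). Its median was 76.1 CPM, and its highest level was 488 CPM in clone 26 (6970 counts), a range of 41.3-fold. Clone 19 stood at 402 CPM and clone 25 at 163, and the other 7 clones lay between 36.2 and 100.1. Exact 95% Poisson intervals, which cover counting error only, were 9.84 to 14.1 CPM for clone 16 and 476 to 499 for clone 26. The CV was 111% against a dispersion trend of 17.1% and a counting CV of 2.16%. Of all tested genes, only 1 had a larger deviance (goodness-of-fit test in edgeR, adjusted p = 6.81e-66).

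Lefty1 followed the same extremes at a lower level. It was at 3.40 CPM in clone 16 (36 counts), at a median of 26.8, and at 126 CPM in clone 19 (2184 counts), a 37.1-fold range. Clone 26 held 104 CPM. Clones 17, 18 and 21 lay between 9.22 and 13.8 CPM, and clones 20 and 22 to 25 between 26.6 and 30.4. Its deviance ranked 11 of 12479 genes (edgeR, adjusted p = 7.55e-40). In bulk RNA, more cells with Lefty transcripts and more transcripts per cell cannot be told apart.

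The 2 clones at the top did not account for the whole spread. Over the other 9 clones Lefty2 still ranged 13.8-fold and Lefty1 8.93-fold. Without clones 19 and 26 both genes passed the goodness-of-fit test in edgeR, with adjusted p of 1.52e-18 for Lefty2 and 1.01e-07 for Lefty1.

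**Figure D2:**
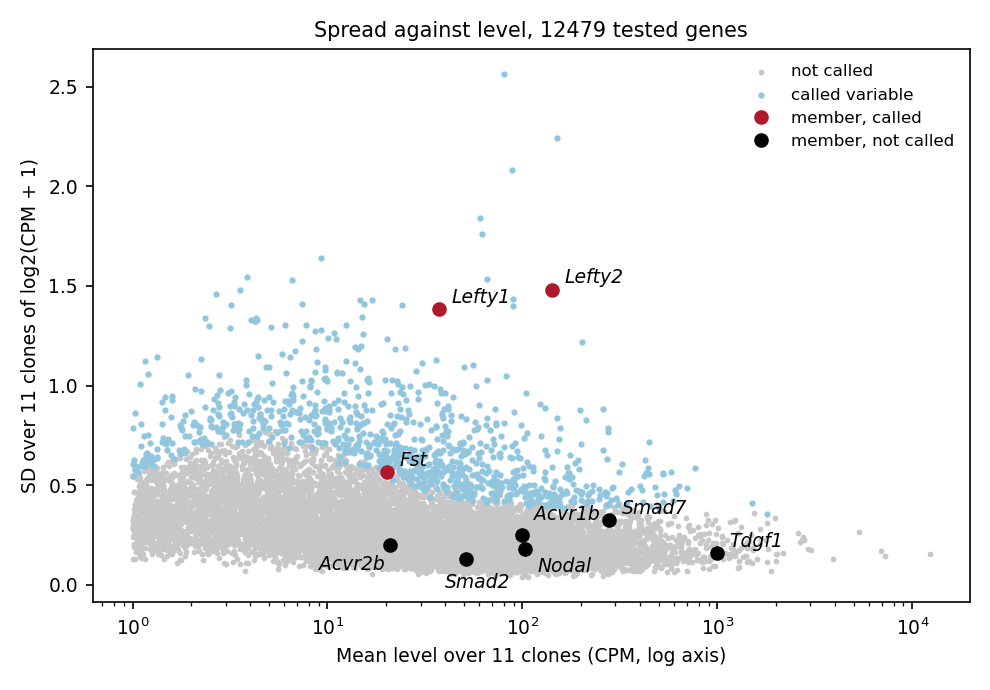
Spread of each of the 12479 tested genes over the 11 clones (SD of log2(CPM + 1)) against its mean level (CPM, log axis); pale points are genes that did not pass the goodness-of-fit test, blue points genes that did, and large points the 9 members. Lefty1 and Lefty2 lie far above the body of genes of their level, Fst at its upper edge, and the other 6 members within it.

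Lefty1 and Lefty2 moved together. The ratio of Lefty2 to Lefty1 CPM within a clone had a median of 3.29 and ranged only from 2.59 in clone 23 to 6.09 in clone 25. On the log2 scale this ratio had an SD of 0.43 over the clones, against 1.47 for Lefty1 and 1.51 for Lefty2 alone. The ratio still differed beyond counting error: its exact 95% interval was 5.44 to 6.83 in clone 25 and 2.33 to 2.88 in clone 23. The genes are paralogues with similar sequence, and 306 of the 1707 distinct 50-base stretches of Lefty1 transcripts (17.9%) also occur in Lefty2, or 12% of the stretches of Lefty2. The sources used here do not give the counting of reads with several matches, so a part of the reads of either gene may be uncertain.

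The 2 Lefty genes lie close together on chromosome 1. On the far side of Lefty1, the ion channel gene Tmem63a spanned 4.54 CPM (clone 16) to 24.1, and Ephx1, an epoxide hydrolase gene, from 11.2 CPM in clone 16 to 28.1 in clone 26. Their r with Lefty2 was 0.72 and 0.82, and neither passed the test (edgeR, adjusted p = 0.221 and 1). On the near side of Lefty2, Sde2, H3f3a and Acbd3 ranged 1.51-fold, 1.35-fold and 1.31-fold. The 24 nearest expressed genes of Lefty2 had medians between -0.08 and 0.10 (log2) of the median clone, so the wider region was level while Lefty2 itself ranged from -2.59 to 2.66.

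**Figure D3:**
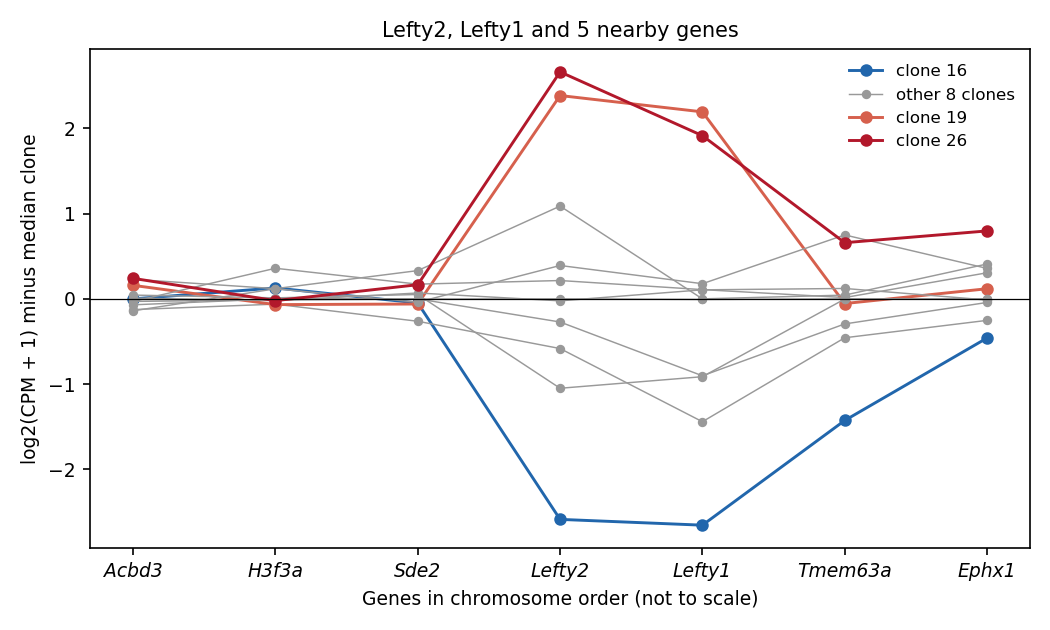
Difference from the median clone, as log2(CPM + 1), of Lefty2, Lefty1 and 5 nearby genes in their order on chromosome 1; each line is 1 clone. Clone 16 lies lowest and clones 19 and 26 highest at both Lefty genes, clone 16 is also lowest at Tmem63a and Ephx1, and Sde2, H3f3a and Acbd3 stay near 0.

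Fst encodes follistatin, which binds and neutralises activins. It was lowest in clone 19 at 9.99 CPM and highest in clone 16 at 30.6, the reverse of Lefty1. Its values left a gap: clones 17, 19, 22, 24 and 26 lay between 9.99 and 13.6 CPM, and the other 6 clones between 23.5 and 30.6, with a median over all clones of 23.5. The highest clone below the gap, clone 22, had an exact 95% Poisson interval of 11.9 to 15.6 CPM, and the lowest above it, clone 20, one of 20.8 to 26.4. The CV was 38.3% against a trend of 24.1%. The call was marginal (edgeR goodness-of-fit test, adjusted p = 0.0451) and was lost when any of clones 16, 18, 19, 20, 21, 22, 23, 25 or 26 was left out, at adjusted p of up to 0.0961. An antisense gene, Gm47040, overlaps 115 of its 4589 exonic bases, and strand-specific counting is not stated.

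Inside the cell, the transducer Smad2 was the steadiest member, from 41.9 CPM in clone 17 through a median of 51.1 to 59.6 in clone 25, a CV of 9.0%. Smad7 ranged 1.99-fold, lowest in clone 26 (199.5 CPM) and highest in clone 18 (397), with a median of 259.96 and 390.4 in clone 16. Its CV of 23.9% exceeded the trend of 16.6%. It did not pass after adjustment (edgeR, adjusted p = 0.331, unadjusted p = 0.0413), nor with the dispersion trend of DESeq2 (adjusted p = 0.261). Smad2 did not pass either (edgeR, adjusted p = 1).

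In the second comparison each clone was set against the other 10 with edgeR's quasi-likelihood method, adjusted over 137269 pairs of gene and clone. Of the 99 pairs of a member and a clone 0 passed, beside 0.213% of all pairs, and 8 of 99 had an unadjusted p under 0.05, beside 5.92% of all pairs. The DESeq2 Wald test also called 0 of the 99. Lefty2 in clone 26 stood at 488 CPM against 107 ± 111 (SD, n = 10), which in log2 is 2.19 ± 0.96 higher (SE; adjusted p = 0.805 in edgeR). The 10 include clone 19, at 402 CPM. In clone 16 the log2 difference was -3.71 ± 1.65 for Lefty2 (edgeR, adjusted p = 0.822) and -3.58 ± 1.63 for Lefty1 (edgeR, adjusted p = 0.837). Nodal in clone 19 had the lowest unadjusted p of the members, 0.0097, at 134 CPM against 99.7 ± 9.16 (edgeR, adjusted p = 0.497).

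Mutual correlation was described with Pearson's r and Spearman's rho of log2(CPM + 1) over the 11 clones, which share their parental line and medium. Of the 36 pairs of members, 10 had an absolute r over 0.6 (27.8%), beside 8.56% of the 112302 pairs of a member with a tested gene. The 10 include Lefty1 with Lefty2, and Nodal, Fst and Smad7 each with both Lefty genes, so they are not independent. Tested genes also reach down to a mean of 1 CPM, while the lowest mean of a member was 20.1 CPM (Fst). The 2 shares are therefore not like for like. Lefty1 and Lefty2 had r 0.96 and rho 0.91, and 0.90 and 0.85 without clones 19 and 26. Lefty1 was the gene with the highest r to Lefty2 of all those tested at 5 CPM or more, and the reverse also held.

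Nodal and Lefty2 had r 0.66 and rho 0.61, and 5.57% of tested genes had an r to Nodal at least as large in either direction. Without the 2 clones farthest from the median of Nodal, 19 and 17, r was 0.55. Without the 2 farthest of Lefty2, 26 and 16, it was 0.86. Without clones 19 and 26, in which both genes were high, r was 0.12 and rho 0.30. Without clone 16 alone, which had the lowest Lefty2 but Nodal at 102 CPM, r was 0.86. The size of r thus depended on clone 16 as well as on clones 19 and 26. For Nodal and Lefty1 the values were r 0.67 and rho 0.47 over all clones. There r was 0.057 without clones 19 and 26 and 0.85 without clone 16.

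Smad7 ran the opposite way from the Lefty genes, with r -0.69 and rho -0.66 to Lefty2 and r -0.65 and rho -0.56 to Lefty1. Without clones 26 and 16 the r with Lefty2 was -0.35, and without clones 19 and 26 it was -0.68. Smad7 went with Acvr1b (r 0.79, rho 0.76) and with Fst (r 0.74, rho 0.72). Without the 2 clones farthest from the median of Smad7 (18 and 16) these r were 0.53 and 0.63. Without the 2 farthest of Acvr1b (17 and 26) the first was 0.77, and without the 2 farthest of Fst (19 and 17) the second was 0.84. In clones 18 and 16 the chromosome 15 neighbours of Acvr1b were also higher, by 0.46 and 0.35 (log2). Their part in the r of Acvr1b with Smad7 was not tested. Fst itself had r -0.61 and rho -0.59 to Lefty2, and -0.35 without clones 19 and 26. Tdgf1 had r of -0.04 and 0.01 with Lefty1 and Lefty2.

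**Figure D4:**
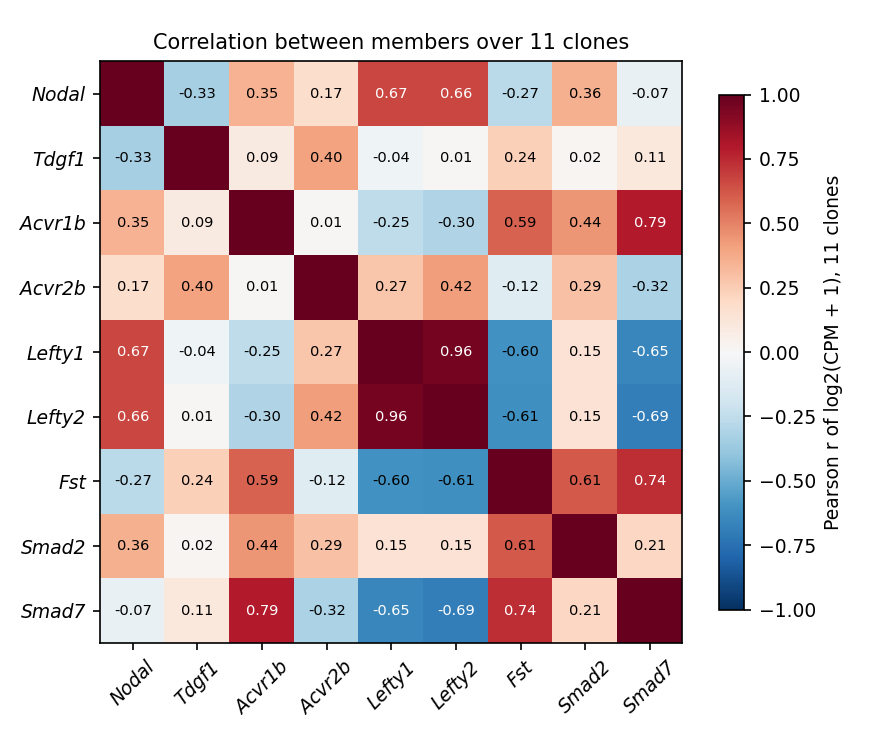
Pearson r of log2(CPM + 1) over the 11 clones for the 36 pairs of members; red is positive and blue negative. Lefty1 and Lefty2 form the strongest pair at 0.96, both run against Smad7 and Fst, and Acvr1b, Fst and Smad7 run together.

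The wider pathway was read from a list of 50 genes by role, of which 49 were in the table and 38 were tested. Without the 9 members, 4 of 29 tested genes passed the goodness-of-fit test in edgeR (13.8%, beside 7.68% of all tested genes), among them Inhbb, Tgfbr3 and Smad3. The median SD of log2(CPM + 1) was 0.30 for these 29 and 0.24 for all tested genes. Among ligands, Inhbb, the activin B subunit, was the 1 of 6 tested that passed (edgeR, adjusted p = 2.31e-11). Clone 26 held 4.90 CPM and clone 19 held 11.1. The other 9 clones spanned 11.5 to 47.8 CPM, so clone 19 lay just below them and clone 26 further below. Inhba was at 0 counts in every library, so no subunit of activin A was detected at this depth. Tgfb1, Tgfb2 and Gdf11 had means of 3.22 to 4.50 CPM and did not pass. The convertases Furin and Pcsk6, which cleave the ligand precursors, ranged from 37.5 to 56.2 and from 76.5 to 166 CPM. Neither passed: 0 of 2 in edgeR, whether the p was adjusted or not, and 0 of 2 with the DESeq2 trend.

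Among the other receptors, Tgfbr3, a TGF-beta co-receptor (betaglycan), passed (edgeR, adjusted p = 6.68e-15). It was at 27.8 CPM in clone 19, 20.6 in clone 20 and 15.8 in clone 16, and at 1.44 to 5.32 in the other 8. Tgfbr1 (48.3 to 90.0 CPM) and Acvr2a (20.2 to 38.4) did not pass. Acvr1c, the alternative type I receptor for Nodal, and Cfc1, the second co-receptor of the Cripto family, did not reach 1 CPM in any clone. Nor did Cer1, a further secreted antagonist of Nodal. Dand5, another, had a mean of 3.29 CPM and did not pass.

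Among transducers, Smad3 passed (edgeR, adjusted p = 0.0386), with 30.4 CPM in clone 19, while no other clone was outside 5.96 to 13.5. Without clone 19 the adjusted p was 1, and it was also lost without clone 20 (0.0808), 21 (0.0505) or 25 (0.0607). Smad4 (80.7 to 120 CPM) and Foxh1 (56.0 to 124) did not pass. Of the 11 intracellular inhibitors 0 passed in edgeR and 0 passed with the DESeq2 trend. Before adjustment 1 of them, Smad7, had a p under 0.05. After Smad7 the highest of them by mean was Tgif1, a corepressor of Smad2 and Smad3, at 184 to 266 CPM. Ppm1a (130 to 163 CPM) and Ski (78.1 in clone 19 to 163 in clone 26) came next. Skil, another corepressor, had a lower mean than these and was at 79.1 to 118 CPM.

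Of the developmental targets, Eomes, a primitive streak transcription factor, was lowest in clones 19 and 26, with 5.31 CPM in clone 19 and 2.94 in clone 26, and held 6.74 to 15.7 elsewhere. It had r -0.75 to Lefty2 and did not pass (edgeR, adjusted p = 0.211). Gsc, Mixl1, T, Foxa2 and Sox17 stayed below a mean of 1 CPM.

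Clones 19 and 26 also held the lowest levels of 5 of 6 ERK feedback genes, which read out MEK/ERK activity: Spry4, Spry2, Etv4, Dusp6 and Spred1. These 5 passed the goodness-of-fit test in edgeR. Etv5 did not (adjusted p = 1), and at 598 CPM in clone 19 it was above its median of 580.2, with clone 26 lowest at 469.8. The sum of the 6 genes was 744 CPM in clone 19 and 711 in clone 26, 909 in clone 25, and 1097 to 1395 in the other 8, with clone 16 highest. Over the 11 clones it had r -0.94 and rho -0.94 to Lefty2, and -0.84 and -0.88 without clones 19 and 26. Etv5 was the largest part of this sum in every clone, at 469.8 to 681 CPM. The other 5 genes were each lower in clone 19 than in clone 26, the reverse of the sum. In the same 2 clones the primitive streak and mesoderm markers summed to 10.6 and 5.60 CPM against 8.45 to 18.7 in the other 9. Eomes, described above, was the largest part of this sum in every clone. The streak sum therefore mainly follows Eomes, not the list as a set. Of the other streak markers that passed 3 counts, T was highest in clone 26, Kdr and Gsc in clone 19 and Mixl1 in clone 18. The anterior visceral endoderm, which expresses Lefty1 in the embryo, was read from Cer1, Hhex, Otx2, Lhx1 and Gsc. Their sum was 22.8 CPM in clone 19 and 35.8 in clone 26, within or below the 23.3 to 61.3 of the other clones, and Cer1 and Lhx1 had at most 1 count in any library. The sum had r -0.0077 and rho 0.08 to Lefty2 over the 11 clones, and r 0.79 and rho 0.67 without clones 19 and 26. Otx2 was the largest part of the sum except in clone 17 (Hhex 17.7 CPM, Otx2 13.7). These correlations therefore mainly follow Otx2, not the list as a set. The part of the ERK feedback, streak and visceral endoderm genes in the Lefty levels was not tested.

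**Figure D5:**
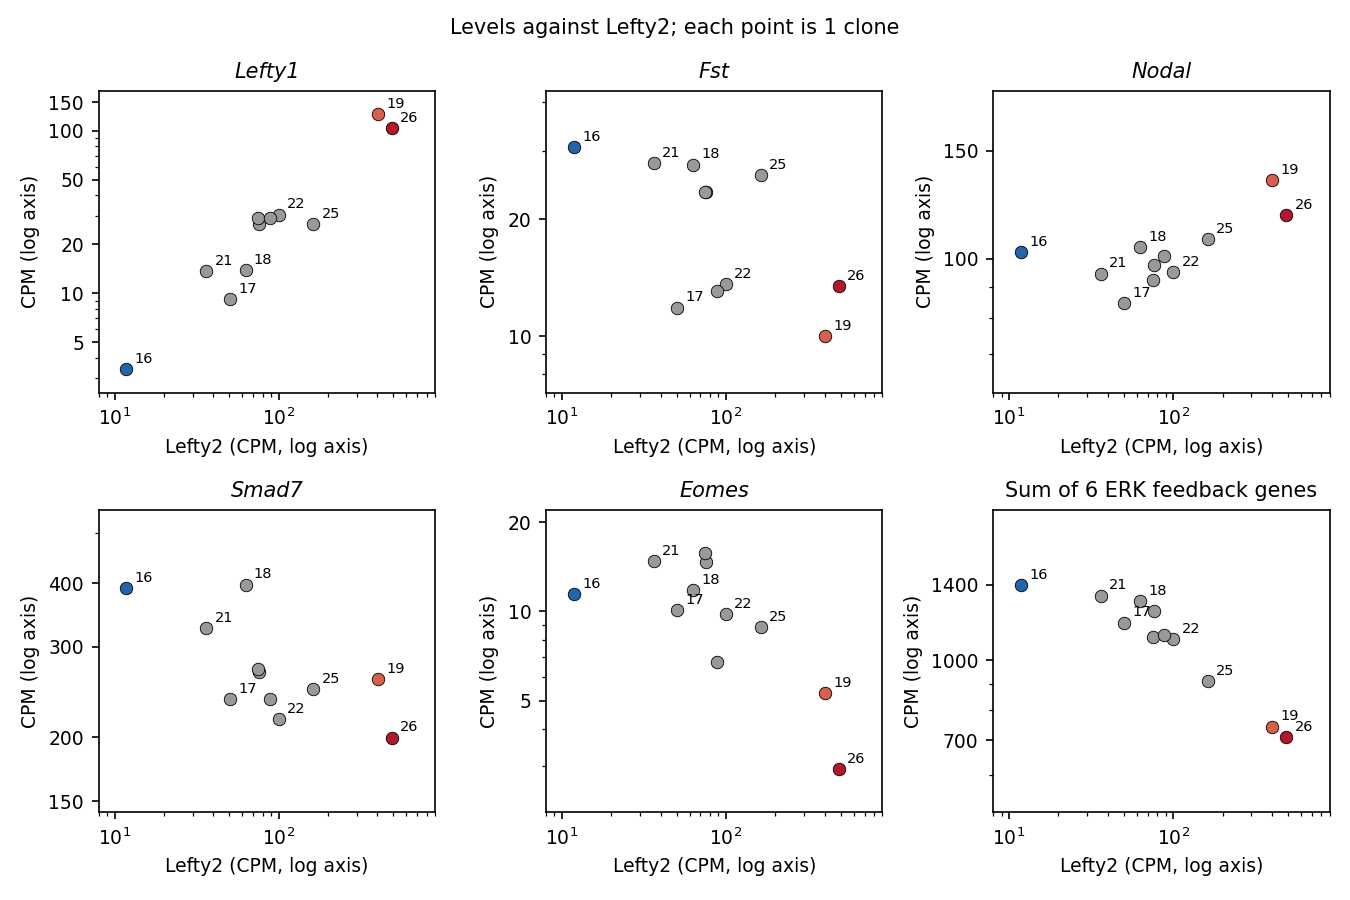
Level of 5 genes and of the sum of 6 ERK feedback genes against Lefty2, all in CPM on log axes; each point is 1 clone, and clones 20, 23 and 24 carry no number. Lefty1 is highest and Eomes and the ERK feedback sum lowest in clones 19 and 26, and Nodal spans a far narrower range than Lefty2.

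By likeness of pattern over the 11 clones, the genes after Lefty1 with the highest r to Lefty2 were Scamp5, a secretory carrier membrane protein gene (0.95), Sgsh, a lysosomal sulfatase gene (0.94), Akap1, a mitochondrial anchor of protein kinase A (0.93), and Naaa, a lysosomal amidase gene (0.91). For Lefty1 after Lefty2 they were Rcan1, a calcineurin regulator (0.93), Naaa (0.93), Akap1 (0.88) and Scamp5 (0.88). Of these, only Naaa passed the goodness-of-fit test in edgeR, with 2.84 CPM in clone 16, 31.8 in clone 19 and 36.6 in clone 26. The rest had narrow ranges, such as 38.2 to 55.1 CPM for Rcan1 and 182 to 322 for Akap1. For Fst the closest were Zfp169 (0.94), Phka2, a phosphorylase kinase subunit (0.94), the Wnt receptor gene Fzd7 (0.91), Fbxl17 (0.90) and Mtmr1 (0.89). Fzd7 was lowest in clone 19 (112 CPM) and highest in clone 16 (328) and passed the test in edgeR. Each r is the highest among 10353 genes, and over 11 clones some genes reach such values for any pattern.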

How the data were processed

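The deposited table holds raw read counts for 22369 mouse genes in 11 libraries. The submitters' processing notes name TopHat 1.4.0, Bowtie 0.12.7 and the builds mm9 and hg19. Which program counted the reads, and whether by strand, is not known from the labels. Symbols were matched for 20777 identifiers. Lengths of exons and the order of genes are those of GENCODE vM21 (GRCm38). Because this is not mm9, gene coordinates are left out.

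The work used R 4.3.3 and edgeR 4.0.16 with TMM scaling, keeping genes whose mean reached 1 CPM. For spread, a negative binomial model with only an intercept took its dispersion from the trend, and its deviance was referred to chi-square with 10 degrees of freedom. Single clones were compared by quasi-likelihood, with the SE taken as the fold change over the root of F. Both tests were checked on simulated counts drawn from the fitted dispersion trend. Such a check cannot show how the tests behave where genes scatter around that trend. The labels do not describe repeat cultures of a clone, so p-values measure only the spread between these libraries. Neighbour medians used the 24 nearest genes with a mean of 5 CPM or more (20 for Fst). DESeq2 1.42.0 served for alternatives, and pandas 2.3.3 and matplotlib 3.10.9 for figures.

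The members, the pathway list and the marker lists were chosen with earlier results of these data known. The named genes are mainly the members, the list's variable genes and those highest in each role, and the 5 genes most like each variable member. Others of the lists, such as Skil, are named beside them. Some results on genes of the lists and of the Lefty region are not reported here.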

Additional observations from a re-analysis of the deposited data

How the results depend on the processing

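Lefty1 and Lefty2 passed the goodness-of-fit test under all alternatives tried: DESeq2 size factors, total counts, a mean CPM of at least 5, no filter, the DESeq2 dispersion trend, each clone left out, and clones 19 and 26 left out together (added after seeing the data). Nodal, Tdgf1, Acvr1b, Acvr2b, Smad2 and Smad7 passed under none of them. The number of members called stayed at 2 or 3, and the call that came and went was Fst, lost with total counts (adjusted p = 0.0526), with no filter (0.0618) and without clones 19 and 26 (0.117). With 1 clone left out its adjusted p ranged from 0.0405 to 0.0961. The count of all gene and clone pairs called was 293 with edgeR and 1435 with the DESeq2 Wald test, and 152 to 278 with 1 clone left out. It was 183, 195, 160, 152, 183, 154 and 163 without clone 18, 19, 20, 21, 22, 23 and 25. Member pairs called were 0 in each of these runs. With 1 clone left out, r of Lefty1 and Lefty2 ranged from 0.93 to 0.97. No paired analysis was possible because all clones form 1 group. With 50 neighbours in place of 24, 4 rather than 3 pairs of member and clone lay beyond 0.2.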

Other observations

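The following genes were singled out after their values were seen, and the values are given with no explanation. Nanog, a core pluripotency factor, was among the 5 genes closest to Nodal in pattern (r 0.90, rho 0.85, n = 11), from 621 to 936 CPM, with clone 19 highest for both, and r was 0.77 without clones 19 and 26. Stk35, a kinase gene, was the closest to Nodal (r 0.94), at 98.2 to 149 CPM. Pou5f1, another core factor, was among the 5 closest to Acvr1b (r 0.91, rho 0.93), at 769 to 970.3 CPM. Vegfa, an angiogenic growth factor gene, was among the 5 closest to Smad7 (r 0.91), at 71.4 CPM in clone 26 and 203 in clone 16, and it passed the goodness-of-fit test in edgeR.

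Clones 20 and 23 gave close values for several members: 76.1 and 74.9 CPM of Lefty2, 26.6 and 28.9 of Lefty1, 23.49 and 23.49 of Fst and 268 and 272 of Smad7. Clone 25 followed clones 26 and 19 in Lefty2 at 163 CPM, and held the median level of Lefty1, 26.8 CPM.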
